A study of Mus musculus with 18 samples.

Results

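The effect of adding the K5-Tert transgene to Braf-mutant thyroid tumours of the mouse was examined in 8 of the 18 libraries of the series. They were chosen by their genotype labels: 4 libraries are BrafV600E+K5-Tert (K5-Tert tumours 1 to 4) and 4 are BrafV600E alone (Braf tumours 1 to 4), and all genes of the table were compared between them. K5-Tert is a transgene in which the keratin 5 promoter drives Tert, so its activity follows that promoter and not the promoter of Tert itself. Both groups carry BrafV600E, and both were sampled at 20 weeks, with the treatment given as Naïve, as thyrocytes sorted by YFP, a yellow fluorescent protein. Each library was made from 9000 to 20000 sorted cells. The other 10 libraries are 7 tumours with BrafV600E+Tert-123C>T (Tert-123 tumours), which share the estimate of spread and are otherwise named where used, and 3 pools without the Braf mutation, which were not used. The labels do not name the driver that switches on BrafV600E and YFP, the sex of the mice or any batch. Separate animals are not stated for the libraries of a group, and the p-values therefore measure only the spread between these samples, which may be technical. Sample names carry numbers, and every K5-Tert tumour has a higher one than any Braf tumour. Whether the groups were collected or sequenced apart is not stated, and such a difference cannot be told apart from the transgene.

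Tert encodes the catalytic subunit of telomerase, the reverse transcriptase that adds repeats to chromosome ends using the RNA Terc as its template. Most adult tissues keep Tert very low, and many advanced thyroid cancers raise it through promoter mutations beside an activated BRAF. BrafV600E is a kinase locked in its active form that drives the MAPK pathway and its transcriptional output. Effects of Tert that do not pass through telomere length have been described for several transcription programmes, and the comparison asks which transcripts differ once Tert is high in tumours that already carry the Braf mutation.

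Immediate-early transcription factor genes such as Fosb, Nr4a1, Nr4a3 and Csrnp1 were higher in the K5-Tert tumours, in every one of them and on every scale used. With them rose Il1b, Cxcl2, Cd14 and the decoy receptor gene Il1r2. Meg3 and Mirg, noncoding RNAs of an imprinted domain, and the corepressor gene Tle2 were lower in every K5-Tert tumour. A second layer of differences, with lower chromatin regulators and Malat1 and higher ribosomal protein transcripts, was larger in K5-Tert tumours 2, 3 and 4 than in tumour 1. Thyroid transcription factors were lower in this way as deposited, and after rescaling Glis3 alone passed. Respiratory chain transcripts were called higher only after rescaling between libraries, where the same 3 tumours lay highest.

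The libraries also differed in overall make-up, between the groups and among the K5-Tert tumours. Values are in TPM, each transcript's length-adjusted share of a library, the unit the deposited values were taken to have, and the depth of sequencing is unknown. Rpph1, the ribonuclease P RNA, accounted for 54.2% to 62.6% of the TPM in Braf tumours and 58.3%, 68.8%, 55.4% and 67.6% in K5-Tert tumours 1 to 4. Genes at 1 TPM or more numbered 13275 to 13904 in Braf tumours and 12627, 11958, 12699 and 10958 in K5-Tert tumours. For transcript length, each gene's level in a library was taken relative to its mean over all Braf-mutant tumours of the series. The rank correlation of these relative levels with length, across genes, was 0.09 to 0.27 in Braf tumours. It was 0.25 in K5-Tert tumour 1, and -0.41, -0.19 and -0.33 in tumours 2, 3 and 4. Xist, the RNA of the inactive X chromosome, was at 73.6, 63.9, 89.9 and 86.1 TPM in Braf tumours and at 0.0294, 0, 52.5 and 0 TPM in K5-Tert tumours, so among the K5-Tert tumours it was near the Braf range in tumour 3 alone. Xist thus set all Braf tumours apart from K5-Tert tumours 1, 2 and 4. The sex of the mice is not labelled, and its part in the differences between the groups was not tested. Because of these shifts in make-up each result is given both as deposited and after TMM-type rescaling, in which every library is divided by a factor from the trimmed mean of its gene ratios, so that the typical gene is level between libraries. The factors were 0.97 to 1.20 in Braf tumours and 1.05, 0.57, 0.86 and 0.57 in K5-Tert tumours. A level after rescaling is relative to that typical gene.

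The transgene was measured first through Tert. Tert was at 4.96, 4.49, 5.12 and 3.78 TPM in Braf tumours 1 to 4 and at 73.9, 11.2, 19 and 53.4 TPM in K5-Tert tumours 1 to 4. The groups did not overlap, and the K5-Tert tumours differed widely among themselves. The difference was 2.5 ± 0.43 (SE) on the log2(TPM + 1) scale, on which every difference below is given (limma adjusted p = 0.00295). The two-sided exact permutation p was 0.0286, the smallest that 70 arrangements of 4 and 4 can give. After rescaling the difference was 3.03 ± 0.43. Terc, the RNA template, was at 28.9, 7.77, 29 and 24.9 TPM in Braf tumours and 35.9, 16.2, 28.5 and 36.2 TPM in K5-Tert tumours, which overlap. Krt5, the gene whose promoter drives the transgene, was at 2.1, 7.48, 4.1 and 2.76 TPM and 29.2, 0.412, 1.21 and 0 TPM (exact p = 0.629). Tumour 1 thus had the highest Krt5 and the highest Tert, while tumour 4 had the next highest Tert with Krt5 listed at 0. The basal keratinocyte markers Krt5, Krt14, Krt15 and Trp63 summed to 18.4 to 40.6 TPM in Braf tumours and to 118, 5.22, 7.86 and 4.15 TPM in K5-Tert tumours. Their part in the Tert level was not tested. Braf itself was at 5.91, 8.47, 9.03 and 9.03 TPM in Braf tumours and 7.34, 2.4, 4.31 and 3.61 TPM in K5-Tert tumours, a difference of -0.81 (exact p = 0.0571) that was -0.35 after rescaling (exact p = 0.0857).

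The labelled cell type was checked against markers. Tg, the thyroid hormone precursor, was at 257, 96.5, 115 and 102 TPM in Braf tumours and 84.1, 272, 174 and 269 TPM in K5-Tert tumours, and Pax8, Nkx2-1 and Foxe1 were present in all 8 libraries. Tshr was not tested because too few tumours reached 10 TPM. Transcripts of other cells were present too. Macrophage markers (8 genes, led by Lyz2) summed to 600.2 to 1028 TPM in Braf tumours and to 865, 632, 3411 and 447 TPM in K5-Tert tumours. Fibroblast markers (6 genes) summed to 161 to 697 TPM and 800.5, 477, 1676 and 212 TPM. Tumour 3 therefore held the most macrophage and fibroblast transcripts of the 8 libraries. As deposited, tumour 4 held fewer macrophage transcripts than any Braf tumour. After rescaling, the median log2 difference of a longer macrophage list (13 genes tested) stood at 0.31 in tumour 4, above the Braf range of -0.35 to 0.21. The surfactant genes Sftpb (3409 to 7423 TPM in Braf tumours, 2849 to 4985 TPM in K5-Tert tumours) and Sftpa1 were abundant in every library, whereas Sftpc of alveolar cells was at most 3.39 TPM. Globin transcripts were listed at 0 in all 8. In bulk RNA, fewer cells of a type and less RNA per cell cannot be told apart.

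Of 7498 genes tested, 44 were higher (0.587%) and 1641 were lower (21.9%) in K5-Tert tumours as deposited, at a limma adjusted p under 0.05. After rescaling 464 were higher (6.19%) and 407 were lower (5.43%). The median difference of all genes was -0.48 as deposited and 0.05 after rescaling, and the split of calls turned from mostly lower to slightly more higher. All 44 genes called higher as deposited were also called after rescaling, as were 407 of those called lower. The other 1234 lower calls did not pass after rescaling, and 420 higher calls passed only after it. The other scalings called 2.6% of genes higher and 6.27% lower (quantile normalization), 4.85% and 7.27% (each library's mean and length trend removed), and 1.28% and 19.6% (TPM rescaled without Rpph1, 10506 genes tested). The counts rested on single libraries. Without K5-Tert tumour 1 they were 78 higher and 3520 lower as deposited and 855 and 875 after rescaling. Without any other single tumour they were 20 to 30 higher as deposited, and 127 to 289 higher and 118 to 212 lower after rescaling. The deposited count lower was 727, 397 and 736 without Braf tumours 2, 3 and 4, was 427 without K5-Tert tumour 2 or 4, and was 1422 and 1570 without Braf tumour 1 and K5-Tert tumour 3. Without K5-Tert tumour 3, 25 genes were higher and 1570 lower as deposited, and 201 and 212 after rescaling. Without K5-Tert tumours 2 and 4, 5 were higher and 16 lower as deposited, and 25 and 16 after rescaling. List counts below without those tumours stand against these counts of all genes. Under all 5 scalings, 38 genes were higher and 309 were lower. Levels that did not overlap between the 4 and 4 tumours occurred in 1.11% of genes on the higher side and 16.2% on the lower side as deposited, and in 11% and 8.91% after rescaling.

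**Figure D1:**
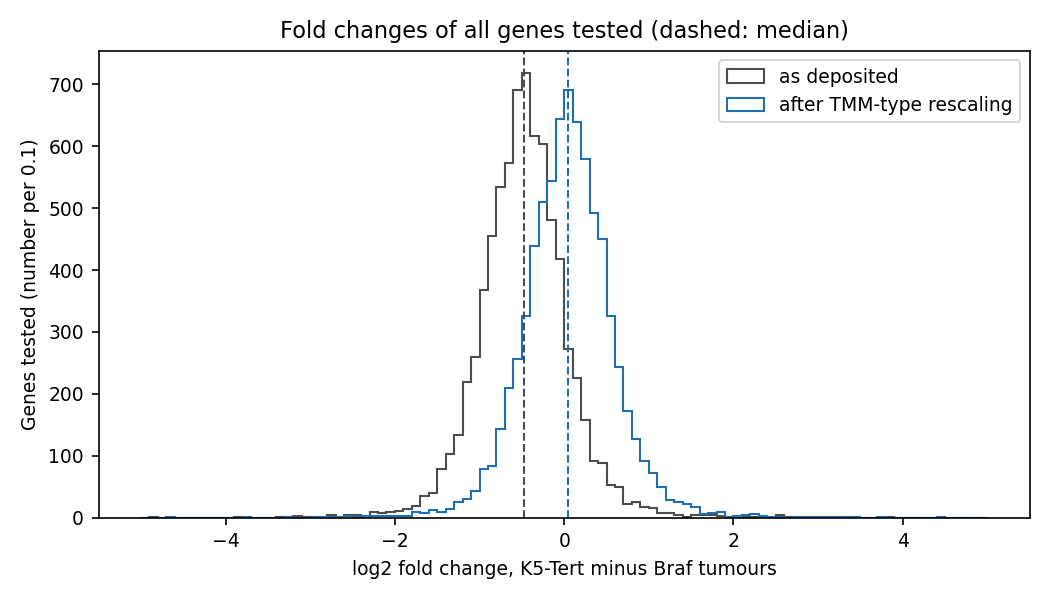
Distribution of the log2 difference between K5-Tert and Braf tumours over the 7498 genes tested (horizontal axis, log2 of TPM + 1; vertical axis, number of genes), as deposited and after TMM-type rescaling. The median moves from -0.48 to 0.05, so most genes lie below 0 as deposited and the rescaled values centre close to 0.

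The 2 sets called on both scales differed in make-up. The 44 higher genes had a median transcript length of 1333 bases against 1951.5 for all genes tested, and none was a long noncoding RNA. The 407 lower genes had a median length of 2618.25 bases, and 20 of them (4.91%) were long noncoding RNAs, against 1.24% of genes tested. The sets also divided the K5-Tert tumours. After rescaling, the median of the 44 higher genes stood 1.03, 2.10, 2.08 and 1.83 above the Braf mean in K5-Tert tumours 1 to 4, and tumour 1 was the lowest of the 4 for 39 of them. The median of the 407 lower genes stood at -0.41, -1.06, -0.83 and -1.0, and tumour 1 was the mildest of the 4 for 315 of them. Every tumour moved in the called direction in these medians, with tumour 1 the closest to the Braf tumours. The genes were chosen by this contrast, so these medians are a description.

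The immediate-early genes were the clearest group that rose. These genes are transcribed within minutes of a growth factor, stress or cytokine signal without new protein synthesis, and many encode transcription factors. Of 27 list members tested, 10 were higher and 0 lower as deposited, against 0.587% of all genes higher, and 17 were higher and 0 lower after rescaling, against 6.19%. The list median was 0.50 as deposited and 1.05 after rescaling, where the medians of all genes were -0.48 and 0.05. The list, like all lists here, was drawn up with earlier results of these data known. After rescaling the list median stood at 0.85, 1.05, 1.64 and 1.27 in K5-Tert tumours 1 to 4 and at -0.21 to 0.19 in the Braf tumours, so every K5-Tert tumour lay above every Braf tumour. As deposited it stood at 0.79, 0.15, 1.30 and 0.35, against -0.35 to 0.27 in the Braf tumours. On that scale K5-Tert tumour 2 was inside the Braf range. Without tumour 3 the counts higher were 7 as deposited and 13 after rescaling, and without tumours 2 and 4 they were 2 and 5, with 0 lower in each.

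Fosb encodes a subunit of the transcription factor AP-1. It was at 4.87, 4.52, 12.3 and 8.53 TPM in Braf tumours and 51.4, 44.4, 155 and 81.1 TPM in K5-Tert tumours. The groups did not overlap, and tumour 3 was the highest. Fosb rose by 3.21 ± 0.58 on the log2 scale (adjusted p = 0.00404). Nr4a1 and Nr4a3 encode orphan nuclear receptors that are switched on by their own transcription and not by a ligand. Nr4a1 was at 4.0, 3.6, 4.55 and 6.62 TPM in Braf tumours and 30.3, 17.7, 72.7 and 44.1 TPM in K5-Tert tumours, a rise of 2.74 ± 0.44 (adjusted p = 0.00232). Nr4a3 was at 2.01, 2.27, 2.14 and 2.35 TPM in Braf tumours, a narrow range, and at 14.8, 11.3, 119 and 10.2 TPM in K5-Tert tumours. Tumour 3 stood far above the other K5-Tert tumours in Nr4a3, and all 4 lay above the Braf tumours. Nr4a3 rose by 2.83 ± 0.62, and by 2.02 without tumour 3 (adjusted p = 0.0247). Csrnp1, a nuclear protein first known as an immediate-early response to axin, was at 5.64, 5.91, 6.71 and 5.36 TPM and 15.3, 19.9, 41.9 and 22.1 TPM. Its rise of 1.81 ± 0.27 had the smallest adjusted p among the immediate-early genes (0.00151).

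Promoter sequence is shown for 4 of these genes because they rose together and because 3 of them lie at the head of the rises. The 250 bases before each annotated start were read from RefSeq on mouse build GRCm38.p6, and each is written 5′ to 3′ on the strand of its gene. Capitals mark TGACG or its complement CGTCA, the core of the cyclic AMP response element bound by CREB and ATF factors; this motif was chosen after the values were seen. The Fosb window is chr7:19310046-19310295 (minus strand), that of Fos chr12:85473640-85473889 (plus), that of Nr4a1 chr15:101266596-101266845 (plus) and that of Nr4a3 chr4:48045055-48045304 (plus).
Fosb: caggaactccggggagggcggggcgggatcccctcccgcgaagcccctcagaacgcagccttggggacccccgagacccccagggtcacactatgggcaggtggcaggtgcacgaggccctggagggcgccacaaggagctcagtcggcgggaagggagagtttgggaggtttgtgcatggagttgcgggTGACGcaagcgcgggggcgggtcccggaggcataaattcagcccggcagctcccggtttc
Fos: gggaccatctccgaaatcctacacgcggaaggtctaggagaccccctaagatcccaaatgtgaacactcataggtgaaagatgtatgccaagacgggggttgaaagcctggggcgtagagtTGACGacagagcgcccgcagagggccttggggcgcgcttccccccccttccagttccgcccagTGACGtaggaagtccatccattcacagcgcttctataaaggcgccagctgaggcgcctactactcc
Nr4a1: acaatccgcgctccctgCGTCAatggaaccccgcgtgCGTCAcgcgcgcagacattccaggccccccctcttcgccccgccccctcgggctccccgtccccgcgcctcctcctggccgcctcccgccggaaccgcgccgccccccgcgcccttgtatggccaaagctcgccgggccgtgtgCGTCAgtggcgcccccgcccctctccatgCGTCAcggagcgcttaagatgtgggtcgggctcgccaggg
Nr4a3: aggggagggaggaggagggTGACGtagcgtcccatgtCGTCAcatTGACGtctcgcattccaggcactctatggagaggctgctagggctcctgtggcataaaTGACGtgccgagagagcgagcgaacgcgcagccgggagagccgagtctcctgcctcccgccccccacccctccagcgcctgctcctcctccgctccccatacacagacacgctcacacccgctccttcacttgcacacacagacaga
The Fosb window holds 1 copy, that of Fos 2, and those of Nr4a1 and Nr4a3 4 each. On either strand, TGACG was found before 7 of the 10 immediate-early genes that rose (Fos, Fosb, Atf3, Nr4a1, Nr4a3, Dusp1 and Csrnp1). It was found in 17.8% of 32851 promoter windows of the same length, and before 32.6% of the 5936 tested genes that have one. The full palindrome TGACGTCA, which contains TGACG, was found before 1 of the 10 (Dusp1) and in 1.55% of all windows. The AP-1 motif TGANTCA was found before 1 of the 10 (Csrnp1) and in 6.75% of all windows, and the CArG box before 0 of the 10 and in 1.47%. These matches describe the windows and are not evidence of binding. Sequence further than 250 bases from the start was not read, so a missing match does not mean that a gene lacks the motif.

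The remaining members varied more among the Braf tumours. Atf3, a stress-induced repressor of the ATF family, was at 9.87, 9.18, 30.8 and 22 TPM in Braf tumours and 54, 80.6, 114 and 221 TPM in K5-Tert tumours. The groups did not overlap, tumour 4 was highest, and Atf3 rose by 2.62 ± 0.60 (adjusted p = 0.00881). Gadd45b, which binds the stress kinase MTK1, was at 8.61, 12.7, 22.1 and 11.7 TPM and 30.8, 39.3, 84.9 and 27.8 TPM and rose by 1.59 ± 0.34. Fos was at 38.1, 21.7, 104 and 74.5 TPM and 122.9, 139.5, 332 and 236 TPM, also without overlap. Its rise of 1.9 ± 0.56 (adjusted p = 0.0244) did not pass without any 1 of Braf tumours 1 and 2 and K5-Tert tumours 2, 3 and 4 (adjusted p from 0.0502 to 0.0859). Dusp1, Ier3 and Socs3 complete the 10 and are named here after their values were seen. Dusp1, the phosphatase that switches off MAP kinases, was at 18.6, 14.8, 42.5 and 28.9 TPM and 45.3, 59.1, 126 and 74.5 TPM and rose by 1.51. Ier3 rose by 0.85 and Socs3, an inhibitor of cytokine receptor signalling, by 0.79. Junb and Jund, partners of Fos and Fosb, were called only after rescaling, at 1.12 and 1.01; as deposited they stood at 0.55 and 0.45 and did not pass.

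**Figure D2:**
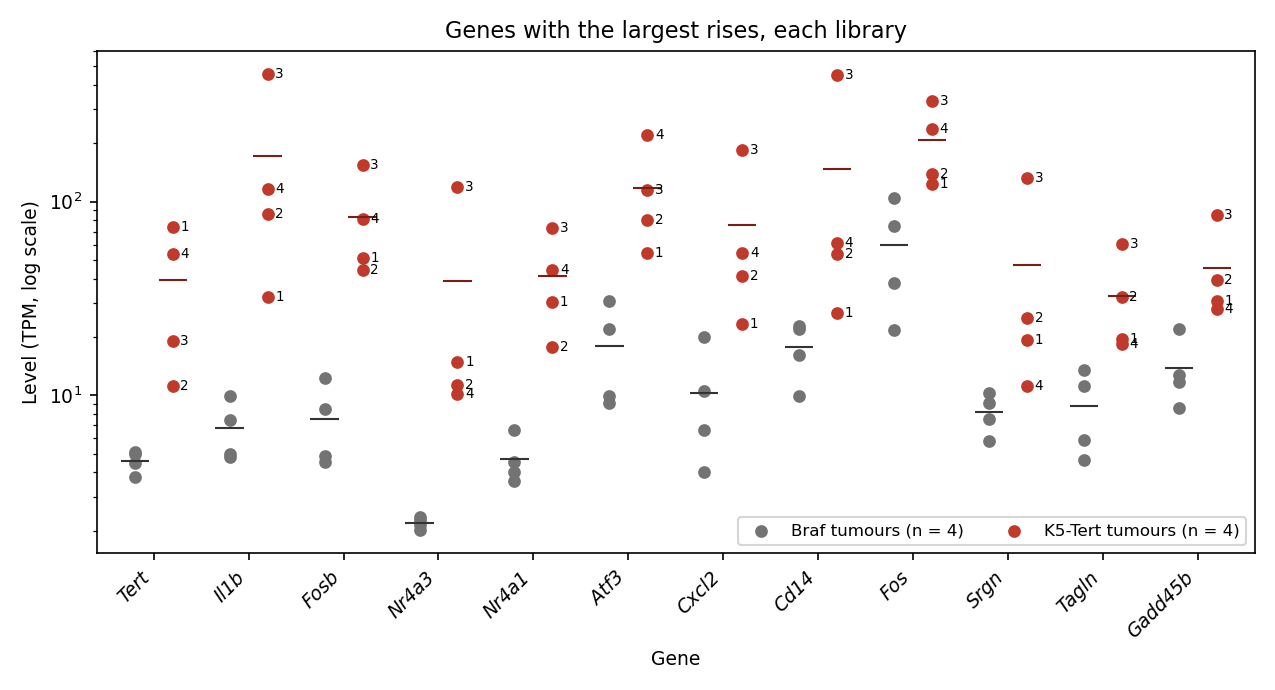
Levels in TPM (logarithmic axis) of genes that rose on both scales, for each of the 4 Braf and 4 K5-Tert tumours. Each point is 1 tumour and each tick is a group mean; Nr4a3 shows tumour 3 at 119 TPM above the other K5-Tert tumours at 10.2 to 14.8 TPM.

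A few inflammatory genes rose beside the immediate-early genes: Il1b, Cxcl2, Il1r2 and Cd14. Il1b, the cytokine interleukin 1 beta, had the largest rise of the named genes. It was at 7.45, 5.0, 4.78 and 9.93 TPM in Braf tumours and 32.1, 86.2, 458 and 116 TPM in K5-Tert tumours, where tumour 3 was highest and the lowest still exceeded every Braf tumour. The rise was 3.89 ± 0.64 (adjusted p = 0.00233) and 4.43 ± 0.70 after rescaling. Cxcl2, a chemokine that attracts neutrophils, was at 10.6, 4.04, 19.9 and 6.59 TPM and 23.5, 41.3, 185 and 54.6 TPM, and rose by 2.54 ± 0.55 without overlap of the groups. Of 11 cytokine and chemokine genes tested, these 2 rose and 0 fell as deposited (0.587% of all genes were higher), and after rescaling Cx3cl1 was also called (0.74, adjusted p = 0.0431); as deposited Cx3cl1 stood at 0.19 and did not pass. The list median was 0.21 as deposited and 0.77 after rescaling.

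Of 10 innate sensing receptor genes, 2 rose and 0 fell on both scales, against 0.587% and 6.19% of all genes higher, and the list median was -0.21 as deposited and 0.33 after rescaling. Il1r2, which binds interleukin 1 without signalling, was at 1.83, 2.37, 2.52 and 3.45 TPM in Braf tumours and 10.01, 14, 67.2 and 6.37 TPM in K5-Tert tumours and rose by 2.28 ± 0.60 (adjusted p = 0.0153). Its call was lost without any 1 of K5-Tert tumours 2 and 3 (adjusted p from 0.0535 to 0.0555). Cd14, the co-receptor for bacterial lipopolysaccharide, was at 16.1, 9.92, 22 and 22.7 TPM and 26.6, 53.9, 449.7 and 61.4 TPM and rose by 2.18 ± 0.61 (adjusted p = 0.0192), a call lost without Braf tumour 2 (adjusted p = 0.0608); without tumour 3 it stood at 1.35, a smaller rise that passed (adjusted p = 0.0364). The Cd14 call was also lost with only the 8 libraries, with Xist as a covariate and with no filter. All 4 K5-Tert tumours lay above every Braf tumour in both genes, and tumour 3 was far the highest. Srgn, the proteoglycan of secretory granules, was at 7.58, 5.8, 9.18 and 10.2 TPM and 19.4, 25, 132 and 11.2 TPM and rose by 1.75 ± 0.60 (adjusted p = 0.0429). That call was lost without any 1 of Braf tumours 1, 2, 3 and 4 and K5-Tert tumours 2 and 3 (adjusted p from 0.0688 to 0.122), and without tumour 3 the difference was 1.04.

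The NF-kB list covers the pathway's subunits, inhibitors and common targets, which interleukin 1 signalling induces. Of 17 members tested, 1 rose and 0 fell as deposited (median 0.19, against 0.587% of all genes higher), and 6 rose after rescaling (median 0.73, against 6.19%). Nfkbia, the inhibitor that is itself an NF-kB target, was at 50.9, 49.5, 60.4 and 40.7 TPM in Braf tumours and 80.2, 63.4, 194 and 83.7 TPM in K5-Tert tumours, without overlap. It rose by 0.92 ± 0.29 (adjusted p = 0.0321) as deposited, a call lost without any 1 of Braf tumours 1, 2, 3 and 4 and K5-Tert tumours 3 and 4 (adjusted p from 0.0513 to 0.0927), and by 1.48 ± 0.26 after rescaling (adjusted p = 0.00516). Tnfaip2, Nfkbiz and Cebpb passed only after rescaling, at 2.11, 1.37 and 1.2; as deposited they stood at 1.59, 0.85 and 0.64. Without tumour 3 the list had 0 members higher as deposited and 1 after rescaling. The promoter window of Nfkbia at chr12:55492648-55492897 (minus strand) and that of Cxcl2 at chr5:90903649-90903898 (plus strand) are shown because both hold the NF-kB motif, in capitals; for Cxcl2 the motif reads on both strands, as 2 overlapping matches.
Cxcl2: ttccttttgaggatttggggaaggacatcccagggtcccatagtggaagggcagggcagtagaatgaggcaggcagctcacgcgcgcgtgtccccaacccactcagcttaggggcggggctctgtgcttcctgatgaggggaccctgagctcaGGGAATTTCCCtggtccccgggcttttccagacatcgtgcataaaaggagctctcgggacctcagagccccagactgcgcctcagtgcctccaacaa
Nfkbia: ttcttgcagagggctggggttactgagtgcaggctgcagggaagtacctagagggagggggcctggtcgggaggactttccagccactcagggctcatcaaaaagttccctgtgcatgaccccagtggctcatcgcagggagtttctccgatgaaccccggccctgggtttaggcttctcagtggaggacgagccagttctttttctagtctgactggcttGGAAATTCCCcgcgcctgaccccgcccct
The motif was found in 3.90% of all windows, before 5.71% of tested genes and before 3 of the 10 immediate-early genes that rose (Fos, Fosb and Ier3).

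Macrophage transcripts differed among the K5-Tert tumours. Of 13 macrophage list members tested, Cd14 alone was called on each scale, and the list median was 0.34 as deposited and 0.88 after rescaling. After rescaling the median stood at 0.54, 0.54, 2.5 and 0.31 in K5-Tert tumours 1 to 4 and at -0.35 to 0.21 in Braf tumours, so every K5-Tert tumour lay above every Braf tumour. As deposited it was 0.49, -0.40, 2.17 and -0.59, with tumours 2 and 4 below the Braf range of -0.30 to 0.15. Il1b stood at 458 TPM in tumour 3, where macrophage markers summed to 3411 TPM. In tumour 4 Il1b was at 116 TPM and the macrophage sum was 447 TPM, under the Braf range of 600.2 to 1028 TPM as deposited. The part of macrophage transcripts in these rises was not tested. The macrophage gene Adgre1, not tested because too few tumours reached 10 TPM, was at 4.23, 3.88, 20.01 and 0.302 TPM in the K5-Tert tumours. As deposited, tumour 4 was inside the Braf range in C1qb and Cd68 and under it in the other macrophage markers. Without tumour 3 Il1b rose by 3.21 (adjusted p = 0.00499). The neutrophil gene Ly6g was listed at 0 in 6 of the 8 libraries and reached 0.723 TPM at most, although neutrophil markers as a whole summed to 4.76, 27.7, 79.2 and 24.8 TPM in K5-Tert tumours against 16.1 to 25.3 TPM. Without tumours 2 and 4, which leaves 2 K5-Tert tumours, Il1b stood at 4.03 (adjusted p = 0.0528), Fosb at 3.5 (0.0565), Nr4a3 at 3.77 (0.0528), Cxcl2 at 2.78 (0.101), Atf3 at 2.24 (0.192) and Gadd45b at 1.9 (0.0554), none past the threshold. Tert (2.8), Nr4a1 (3.1) and Csrnp1 (1.94) passed without those tumours, each with an adjusted p of 0.0268.

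The contractile genes Tagln and Acta2 rose, 2 of 5 smooth muscle and pericyte list members tested on either scale. Of all genes, 0.587% were higher as deposited and 6.19% after rescaling. As deposited, 0 of the 5 passed without tumour 3. Tagln, an actin-binding protein of smooth muscle, was at 13.5, 4.62, 5.86 and 11.1 TPM in Braf tumours and 19.6, 32.1, 60.3 and 18.5 TPM in K5-Tert tumours and rose by 1.73 ± 0.49 (adjusted p = 0.0209). Acta2, smooth muscle actin, was at 9.14, 4.97, 5.17 and 6.95 TPM and 23.3, 25.1, 52.1 and 10.6 TPM and rose by 1.76 ± 0.52 (adjusted p = 0.0236). The groups did not overlap in either gene. Tagln lost its call without any 1 of Braf tumours 2 and 3 and K5-Tert tumours 2 and 3 (adjusted p from 0.0529 to 0.071), and Acta2 without any 1 of Braf tumours 2, 3 and 4 and K5-Tert tumours 2 and 3 (adjusted p from 0.0503 to 0.0729). Of 9 fibroblast and 5 endothelial list members tested, 0 passed on either scale, yet the fibroblast medians were 0.97 and 1.52. The 6 smooth muscle and pericyte markers summed to 23.2 to 46.1 TPM in Braf tumours and 90.05, 108, 195 and 37 TPM in K5-Tert tumours, so tumour 4 was inside the Braf range; their part in these rises was not tested. The pericyte genes Pdgfrb and Cspg4, named after their values were seen, did not pass (adjusted p = 0.215 and 0.914). Pdgfrb was at 18.1, 17.6, 30.6 and 2.62 TPM in K5-Tert tumours, against 3.8 to 9.38 TPM in Braf tumours. Cspg4 was at 11.1, 10.2, 11.8 and 2.13 TPM, against 5.36 to 10.3 TPM. Rgs5 and Myh11 were not tested because too few tumours reached 10 TPM. Rgs5 was at 10.1, 20, 29.2 and 2.57 TPM, against 0.708 to 3.3 TPM. Myh11 was at 7.82, 3.38, 10.6 and 0.6 TPM, against 1.06 to 2.05 TPM. Id3, an inhibitor of differentiation factors and a TGF-beta family target, was at 22.4, 34.1, 36.1 and 29 TPM and 58.1, 75.5, 74.7 and 42.2 TPM and rose by 1.0 ± 0.28, a call lost without any 1 of Braf tumours 1 and 4 and K5-Tert tumour 2 (adjusted p from 0.0506 to 0.0713). Of 16 TGF-beta genes, Id3 was the 1 that rose as deposited (0.587% of all genes were higher). Id1 and Id2 joined it after rescaling (6.19%).

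Few members of the other stress lists passed the test as deposited. Of all genes, 0.587% were higher and 21.9% lower as deposited, and 6.19% were higher and 5.43% lower after rescaling. Of 16 heat shock genes, Hspa1a, an inducible Hsp70 chaperone, was the only one called (25.5, 31, 36.2 and 37.6 TPM in Braf tumours and 67.8, 45.8, 101 and 103 TPM in K5-Tert tumours, 1.2 ± 0.42, adjusted p = 0.0458). Its call was lost without any 1 of Braf tumours 1, 2, 3 and 4 and K5-Tert tumours 2, 3 and 4 (adjusted p from 0.0602 to 0.138), and reads shared with its near-identical neighbour Hspa1b make its level uncertain. After rescaling Hspa1b and the constitutive Hspa8 were called too (1.09 and 1.17). Of 22 unfolded protein response genes, 0 rose and 1 fell as deposited, the sensor gene Ern1 (-1.15; lost without any 1 of Braf tumours 2, 3 and 4 and K5-Tert tumours 2 and 4 (adjusted p from 0.0672 to 0.141)), and 6 rose with 0 lower after rescaling, among them Ddit3 (0.84), Dnajb9 (0.78) and Ppp1r15a (1.39). Of 13 p53 target genes 0 passed as deposited, and after rescaling the stress cytokine gene Gdf15 rose by 1.39 (adjusted p = 0.0262).

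Ribosomal protein transcripts were higher in K5-Tert tumours 2 to 4, and 12 of 74 passed the test as deposited. These genes encode the protein components of the cytosolic ribosome and are short and highly expressed. As deposited 0 were lower, and after rescaling 51 were higher and 0 lower, where 0.587% and 6.19% of all genes were higher. The list median was 0.42 as deposited and 0.99 after rescaling. After rescaling the median stood at 0.14, 1.53, 0.97 and 1.29 in K5-Tert tumours 1 to 4, against -0.17 to 0.11 in Braf tumours, so tumour 1 lay just above that range. Without tumour 3 the counts higher were 6 and 23, and without tumours 2 and 4 they were 0 and 1. Rps7 was at 270.0, 272, 338 and 405 TPM in Braf tumours and 516, 905, 929 and 808 TPM in K5-Tert tumours, a rise of 1.28 ± 0.29 (adjusted p = 0.00858). Rpl3 was at 245, 269.6, 331 and 292 TPM and 554, 509, 474 and 465 TPM and rose by 0.82 ± 0.19. Rpl41 and Rpsa, also the receptor subunit for laminin, rose by 0.91 and 0.90. In each of these 4 genes the groups did not overlap, and in Rpl3 tumour 1 was the highest of all. Many ribosomal protein genes have near-identical pseudogenes, so single levels are uncertain. After quantile normalization, in which all libraries are given the same distribution, 10 of the 74 were higher, against 2.6% of all genes.

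Respiratory chain and antioxidant genes showed this division after rescaling only. Of 76 nuclear genes for oxidative phosphorylation, 0 passed as deposited (median 0.03) and 24 rose with 0 lower after rescaling (median 0.58), against 6.19% of all genes higher; after quantile normalization 3 were higher, against 2.6%. As deposited the list medians of K5-Tert tumours 1, 2 and 4 lay inside the Braf range of -0.13 to 0.16, and that of tumour 3 lay above it at 0.27. The rescaled median was 0.06, 0.91, 0.61 and 0.95 in K5-Tert tumours 1 to 4 and -0.15 to 0.06 in Braf tumours, and tumour 1 again sat beside the Braf tumours. Ndufa13 of complex I was at 72.3, 66.1, 76.6 and 67.5 TPM in Braf tumours and 97.2, 99.1, 121 and 89.9 TPM in K5-Tert tumours, 1.08 ± 0.19 after rescaling (adjusted p = 0.00529). Cox4i1 of complex IV stood at 1.0 and Ndufs5 of complex I at 1.74, both past the threshold after rescaling. Without tumour 3 the rescaled count was 11, and without tumours 2 and 4 it was 0. Of 23 oxidant defence genes 0 passed as deposited and 5 rose after rescaling, against 6.19% of all genes higher. They include the glutathione peroxidases Gpx1 (1.29) and Gpx4 (1.04) and superoxide dismutase Sod1 (0.86). Of 18 glycolysis and hypoxia genes 1 fell as deposited, Vegfa (-1.07, adjusted p = 0.0487; lost without any 1 of Braf tumours 1, 2, 3 and 4 and K5-Tert tumours 2 and 4 (adjusted p from 0.0677 to 0.194)), and after rescaling 4 others rose, Pfkl, Tpi1, Pgam1 and Ldha, and 0 fell. These 4 rises stand against 6.19% of all genes higher after rescaling, and the 1 fall against 21.9% lower as deposited. Ldha stood at 0.16 as deposited and 0.72 after rescaling. All these rescaled rises are relative to the typical gene, whose level was lower in the deposited values of tumours 2, 3 and 4.

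**Figure D3:**
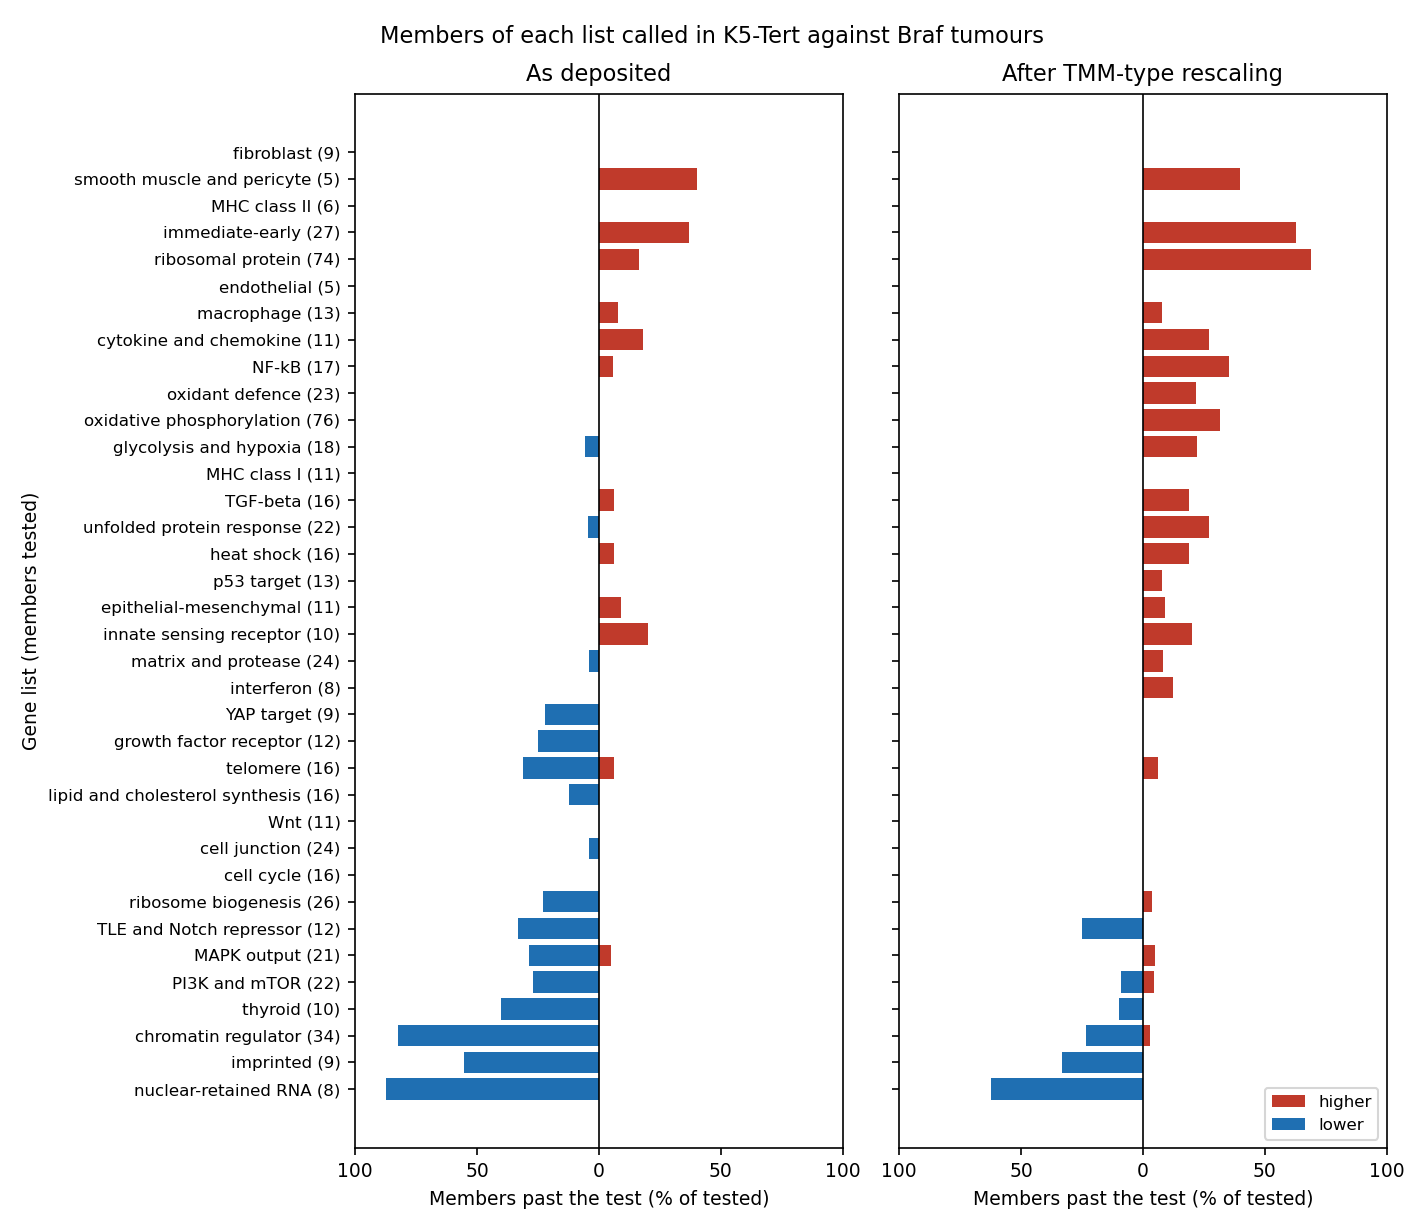
Share of the tested members of each gene list called higher (right, red) or lower (left, blue) in K5-Tert than in Braf tumours, in percent, as deposited and after TMM-type rescaling, with the number tested in brackets. Immediate-early genes are called higher in both panels (10 and 17 of 27) and nuclear-retained RNAs lower in both (7 and 5 of 8), while chromatin regulators go from 28 of 34 lower to 8.

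Meg3 and Mirg, noncoding RNAs of the imprinted Meg3 domain, were below every Braf tumour in all K5-Tert tumours. Meg3, Rian and Mirg are transcribed from the maternal chromosome as neighbours and carry clusters of small RNAs, and Meg3 is known as a growth-restraining RNA in several tumours. Meg3 was at 54.9, 130.1, 204 and 189 TPM in Braf tumours and 30.5, 17.6, 8.83 and 6.07 TPM in K5-Tert tumours. The groups did not overlap, although Braf tumour 1 was well below the other Braf tumours. Meg3 fell by 3.19 ± 0.43 on the log2 scale (adjusted p = 0.000844), the largest fall among the named genes, and stood at -2.66 ± 0.44 after rescaling (adjusted p = 0.00477). Mirg was at 7.8, 26.6, 44.6 and 29.2 TPM and 3.3, 3.88, 1.83 and 2.19 TPM and fell by 2.70 ± 0.40. Rian was at 52.3, 121, 226 and 199 TPM and 30.9, 55.1, 17.4 and 39.97 TPM, overlapping only between Braf tumour 1 and K5-Tert tumour 2, and its -1.94 as deposited (adjusted p = 0.00657) was -1.39 after rescaling, where it did not pass (adjusted p = 0.0683). Tumour 1 lay below every Braf tumour in all 3. Meg3 and Mirg passed without tumours 2 and 4 at -2.88 and -2.79, each with an adjusted p of 0.0317.

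Of 9 imprinted genes tested, 5 fell and 0 rose as deposited, against 21.9% of all genes lower, and 3 fell after rescaling, against 5.43%. Their median was -1.67 as deposited and -1.21 after rescaling. The other 2 called were Airn and Mest, the latter named after its values were seen. Mest, an imprinted hydrolase gene, was at 149, 47.2, 53.4 and 67.7 TPM in Braf tumours and 5.44, 30.3, 29.5 and 21.7 TPM in K5-Tert tumours, where tumour 1 was lowest, and it did not pass after rescaling (-1.35, adjusted p = 0.194). Airn, the antisense RNA of the Igf2r locus, was at 16.6, 15, 18.5 and 20.8 TPM and 13.5, 2.7, 5.29 and 2.46 TPM and fell by 1.67 ± 0.39. The counting is not stated to use strand, so reads of Airn and Igf2r cannot be told apart.

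Tle2 and its relatives encode Groucho corepressors, which are recruited by Notch, Wnt and homeodomain factors to silence genes. Tle2 was at 77.3, 73.5, 88 and 77.7 TPM in Braf tumours and 32.2, 12.7, 12.8 and 13.7 TPM in K5-Tert tumours, and every K5-Tert tumour was at less than the lowest Braf level, with tumour 1 between the groups. Tle2 fell by 2.20 ± 0.26 (adjusted p = 0.000369) and stood at -1.66 ± 0.20 after rescaling (adjusted p = 0.00112). Tle6 was at 16.4, 12.1, 19.8 and 16.7 TPM and 6.87, 6.54, 7.61 and 3.0 TPM and fell by 1.34 ± 0.29, and Tle4 fell by 1.14 ± 0.31; both also passed after rescaling, at -0.85 and -0.65. The deposited calls of Tle4 and Tle1 were lost without single libraries (Braf tumours 2, 3 and 4 and K5-Tert tumours 2, 3 and 4, with an adjusted p from 0.0524 to 0.101). Tle1 fell by 0.92 as deposited and stood at -0.41 after rescaling, where it did not pass. Of 12 members of the Tle and Notch repressor list, these 4 fell as deposited, against 21.9% of all genes lower. After rescaling Tle2, Tle4 and Tle6 fell, against 5.43%, with 0 higher on either scale. The list median was -0.57 as deposited, close to that of all genes, and -0.04 after rescaling.

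The other large falls were in genes of varied function. Arhgef38, a guanine nucleotide exchange factor, was at 44.1, 35.6, 72.1 and 82.8 TPM in Braf tumours and 17.3, 8.5, 5.9 and 8.22 TPM in K5-Tert tumours and fell by 2.46 ± 0.43 (adjusted p = 0.00362). Vash2, a tubulin-processing enzyme linked to vessel growth, was at 92.3, 97.1, 189 and 152 TPM and 50.5, 36.8, 12.8 and 21.2 TPM and fell by 2.20 ± 0.46. In both the K5-Tert tumours lay below all Braf tumours. Myo5c, a class V myosin of epithelial secretory cells, fell by 2.08 ± 0.32, and Slc26a9, an epithelial anion transporter, by 2.02 ± 0.47, although tumour 1 was inside the Braf range for Slc26a9. Spaca6 was at 49.4, 88.9, 70.7 and 60.8 TPM and 51.4, 8.16, 13.2 and 6.5 TPM, where tumour 1 was inside the Braf range and tumours 2 to 4 were far below it. Fam193b and Pisd-ps3 fell by 2.11 and 2.22; Pisd-ps3 is a pseudogene, so its reads may be shared with its parent gene. All of these also passed after rescaling. Without tumours 2 and 4, Tle2 (-1.9), Pisd-ps3 (-1.6) and Fam193b (-1.46) passed, while Arhgef38 (-2.33, adjusted p = 0.0916), Vash2 (-2.26, 0.106), Myo5c (-1.65, 0.0528), Slc26a9 (-1.83, 0.191) and Spaca6 (-1.3, 0.218) did not.

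**Figure D4:**
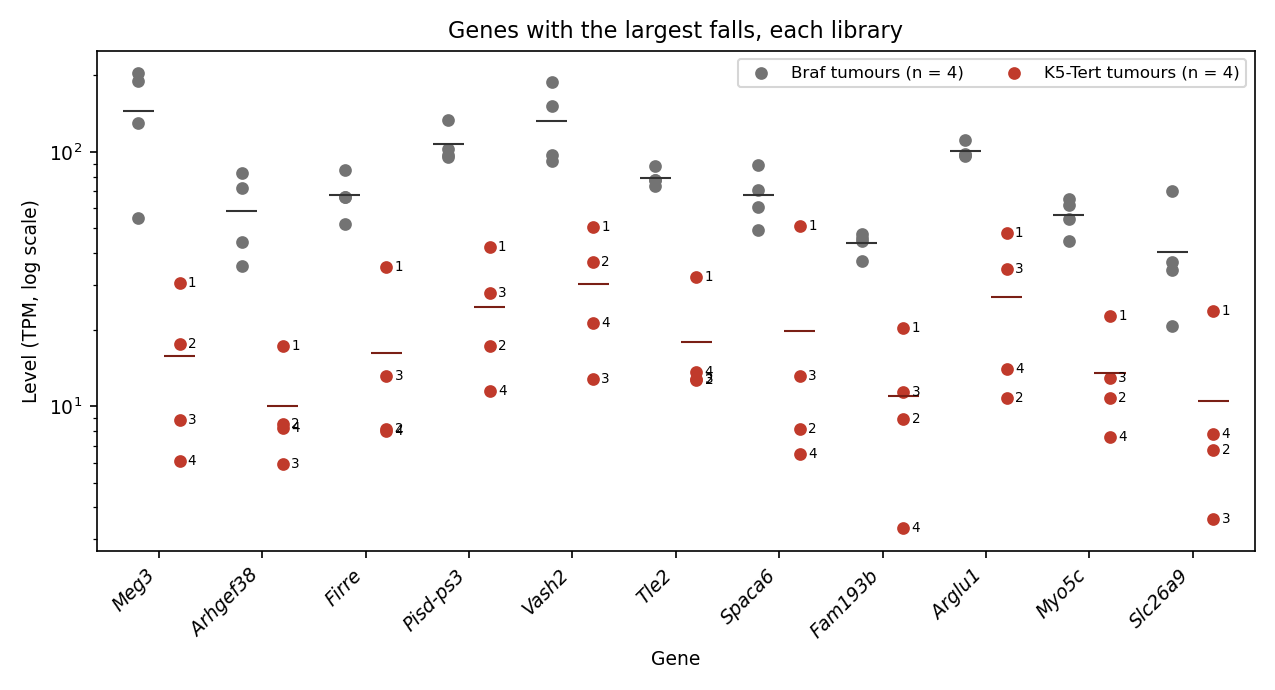
Levels in TPM (logarithmic axis) of genes that fell on both scales, for each of the 4 Braf and 4 K5-Tert tumours. Each point is 1 tumour and each tick is a group mean; Tle2 is at 73.5 to 88.0 TPM in Braf tumours and at 32.2, 12.7, 12.8 and 13.7 TPM in K5-Tert tumours, with tumour 1 nearest the Braf tumours.

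Nuclear-retained RNAs fell, and here tumour 1 divided the list. Of 8 tested, 7 were lower and 0 higher as deposited and 5 were lower and 0 higher after rescaling, against 21.9% and 5.43% of all genes lower, with medians of -2.09 and -1.55. Malat1, a nuclear speckle RNA and among the most abundant long noncoding RNAs, was at 5762, 7065, 7496 and 7221 TPM in Braf tumours and 5902, 1191, 1908 and 1050.1 TPM in K5-Tert tumours. Neat1, the scaffold RNA of paraspeckles, was at 62, 95.7, 81.6 and 72.9 TPM and 60.4, 12.9, 22.3 and 19.6 TPM. Firre, an X-linked nuclear RNA, was at 52.2, 66.8, 84.9 and 66.4 TPM and 35.3, 8.11, 13.2 and 8.01 TPM. In Malat1 tumour 1 was inside the Braf range, in Neat1 just under it, and in Firre below it, while tumours 2 to 4 were low in all 3. Malat1 fell by 1.82 ± 0.36 as deposited (adjusted p = 0.00528) and stood at -1.26 after rescaling (adjusted p = 0.0145). Without tumours 2 and 4 Malat1 stood at -1.03 (adjusted p = 0.187) and Firre at -1.58 (0.0528). Meg3, Rian, Mirg and Xist, which tumour 1 also has low, are in this list too, so its rescaled median of -1.41 in tumour 1 rests on them.

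Arglu1, a regulator of splicing, was at 96.6, 97.9, 112 and 97.1 TPM in Braf tumours and 47.9, 10.8, 34.8 and 14 TPM in K5-Tert tumours and fell by 2.11 ± 0.36 (adjusted p = 0.00266). Pnisr, Leng8 and Srek1, which are named after their values were seen, showed the same order of tumours, with tumour 1 between the Braf tumours and the rest. Pnisr was at 88.3, 95.5, 114 and 92.8 TPM in Braf tumours and 55.6, 14.7, 27.8 and 14.5 TPM in K5-Tert tumours. After rescaling Arglu1, Pnisr, Leng8 and Srek1 stood at -1.57, -1.42, -1.36 and -1.31, all past the threshold. Without tumours 2 and 4 Arglu1 was at -1.28 (adjusted p = 0.0554).

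Chromatin regulators fell widely as deposited. Of 34 tested, 28 were lower and 0 higher, against 21.9% of all genes lower, and after rescaling 8 were lower and 1 was higher (Hdac5, 0.63), against 5.43% lower. The list median was -0.99 as deposited and -0.48 after rescaling. Kmt2d, a histone H3 lysine methyltransferase of enhancers, was at 52.5, 54.3, 53.4 and 53.4 TPM in Braf tumours and 47.1, 7.97, 23.3 and 14.8 TPM in K5-Tert tumours. Kmt2a, its relative at promoters, was at 22.4, 30.4, 30.9 and 26 TPM and 24.5, 3.91, 11.2 and 7.28 TPM. Ncor1, a scaffold of histone deacetylase complexes, was at 43, 48.9, 52.2 and 49.98 TPM and 42, 9.25, 22.7 and 14 TPM. In Kmt2a tumour 1 was inside the Braf range and in Kmt2d and Ncor1 close under it, and tumours 2 to 4 were below it, in the order 3, 4 and 2 from the highest. Kmt2d fell by 1.43 ± 0.34, Ncor1 by 1.31 ± 0.31, Kmt2a by 1.41 ± 0.35 and Chd3, a nucleosome remodeller, by 1.14 ± 0.29. After rescaling they stood at -0.90, -0.78, -0.90 and -0.60, all past the threshold. The deposited calls of Kmt2a and Chd3 were lost without single libraries (Braf tumour 3 and K5-Tert tumours 2 and 4, with an adjusted p from 0.0503 to 0.056). Without tumour 3 the rescaled count lower was 4, and without tumours 2 and 4 it was 0 on both scales. The rescaled list median was 0.02, -0.93, -0.36 and -0.55 in K5-Tert tumours 1 to 4. Tumours 2, 3 and 4 are also those in which levels relative to the mean of all Braf-mutant tumours fell with transcript length. The transcripts here are long (10352 bases for Kmt2d). The part of length in these falls was not tested beyond the removal of each library's mean and length trend. After that removal 11 of the 34 were lower, against 7.27% of all genes.

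Thyroid transcription factors fell as deposited, and Glis3 alone also passed after rescaling. Of 10 thyroid genes tested, 4 were lower and 0 higher, against 21.9% of all genes lower, and after rescaling 1 was lower, against 5.43%, which is near that share. Nkx2-1, Pax8 and Hhex specify and maintain the thyrocyte. Nkx2-1 was at 198, 186, 222 and 174 TPM in Braf tumours and 137, 52.4, 69.3 and 73.1 TPM in K5-Tert tumours and fell by 1.31 ± 0.31. Pax8 was at 67.8, 89.8, 107 and 79.3 TPM and 91.6, 16.8, 30.2 and 30.4 TPM, with tumour 1 inside the Braf range, and fell by 1.27 ± 0.39, a call lost without any 1 of Braf tumours 2, 3 and 4 and K5-Tert tumours 2 and 4 (adjusted p from 0.0566 to 0.126). Hhex was at 128, 134, 174 and 159 TPM and 101, 41.4, 55.6 and 43.1 TPM and fell by 1.37 ± 0.30. After rescaling these stood at -0.75 (adjusted p = 0.0881), -0.72 (0.158) and -0.82 (0.0507), none past the threshold. Glis3, a zinc finger factor needed for thyroid hormone synthesis, was at 34.7, 43.9, 51.9 and 41.9 TPM and 32.3, 13.6, 12.6 and 18.5 TPM; it fell by 1.20 ± 0.27 and stood at -0.66 after rescaling (adjusted p = 0.0472). Tg, the product these factors serve, was higher in tumours 2 and 4 than in any Braf tumour and did not pass (0.47, adjusted p = 0.461). The list median was -0.85 as deposited and -0.31 after rescaling. By tumour, the rescaled median was -0.17, -0.43, -0.82 and 0.47 in K5-Tert tumours 1 to 4, against -0.05 to 0.17 in Braf tumours.

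Most calls in the MAPK output, telomere and growth pathway lists were lower as deposited and did not pass after rescaling, and the shares called lower as deposited were near the 21.9% of all genes. Of all genes, 0.587% were higher as deposited, and 6.19% were higher and 5.43% lower after rescaling. Of 21 MAPK output genes, 1 rose (Ier3) and 6 fell as deposited, and after rescaling Ier3 alone passed. Etv4 and Etv5 encode ETS factors induced by ERK. Etv4 was at 30.1, 47.5, 50.01 and 46.6 TPM in Braf tumours and 31.6, 18.1, 15.7 and 17 TPM in K5-Tert tumours, with tumour 1 inside the Braf range, and stood at -1.07 (adjusted p = 0.0113) and, rescaled, -0.53 (0.0925). Etv5 stood at -0.88 and -0.35, and Hmga2, an architectural chromatin protein of aggressive tumours, at -1.63 and -1.09. The deposited call of Etv5 was lost without any 1 of Braf tumours 2 and 3 and K5-Tert tumour 4 (adjusted p from 0.05 to 0.0704) and that of Hmga2 without K5-Tert tumour 2 (adjusted p = 0.0612). Of 16 telomere genes Tert rose and 5 fell as deposited, and after rescaling only Tert passed. The shelterin genes Terf1, Terf2 and Terf2ip, whose products coat telomeres, stood at -1.07, -1.11 and -0.94 as deposited, with falls that passed, and at -0.59, -0.65 and -0.44 after rescaling, where none passed. The deposited calls of these 3 were lost without single libraries (Braf tumours 2, 3 and 4 and K5-Tert tumours 2 and 4, with an adjusted p from 0.0512 to 0.0888). The telomere list median was -0.39 and 0.15. Of 22 PI3K and mTOR genes, 6 fell as deposited and 2 after rescaling, the insulin receptor substrate gene Irs1 (-1.05) and Rps6kb2 (-0.77), with Akt1 higher. Of 26 ribosome biogenesis genes, which build the ribosome and differ from the ribosomal proteins themselves, 6 fell as deposited, among them Ubtf (-1.01), Wdr43 (-0.89) and Nolc1 (-0.84); after rescaling 0 fell and 1 rose. These 3 calls were lost without single libraries (Braf tumours 2, 3 and 4 and K5-Tert tumours 2 and 4, with an adjusted p from 0.0556 to 0.115). Their median was -0.55 and -0.02.

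Several programmes gave no call on either scale. Among them were the Wnt list (11 tested), the cell cycle list (16), class I (11) and class II (6) antigen presentation, and the fibroblast and endothelial lists above. Their rescaled medians were 0.10, 0.03, 0.47, 1.08, 1.52 and 0.92. In the class II list the rescaled median was -0.10, 1.24, 2.78 and 0.74 in K5-Tert tumours 1 to 4, so tumour 3 stood highest there as it did in macrophage markers. Of 8 interferon genes 0 passed as deposited and Isg15 alone after rescaling (1.38, adjusted p = 0.0437), against 6.19% of all genes higher. Of 24 cell junction genes 1 fell as deposited (Dsc2, -1.07; lost without any 1 of Braf tumours 1, 2, 3 and 4 and K5-Tert tumours 2, 3 and 4 (adjusted p from 0.0581 to 0.198)) and 0 passed after rescaling. That share lower as deposited was under the 21.9% of all genes. Of 12 growth factor receptor genes 3 fell as deposited, near the 21.9% of all genes lower, and 0 passed after rescaling. The 3 were Igf1r (-1.33), Fgfr2 (-0.96) and Insr (-0.69). Each of these 3 calls was lost without some single libraries (Braf tumours 1, 2, 3 and 4 and K5-Tert tumours 2 and 4, with an adjusted p from 0.0506 to 0.174).

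The K5-Tert tumours were not uniform, and the lists separated them in different ways. Tumour 1, which had the highest Tert, Krt5 and Krt14, lay in or just above the Braf range in the ribosomal protein, oxidative phosphorylation and chromatin lists and stood apart from them in immediate-early and imprinted genes (rescaled medians 0.85 and -1.98). Tumour 3, where Xist was near the Braf range, was highest in Il1b, Cd14, Nr4a3 and macrophage and fibroblast transcripts. Tumours 2 and 4, with the lowest Malat1 and the smallest rescaling factors, held the highest ribosomal protein medians after rescaling (1.53 and 1.29); as deposited tumour 3 was highest (0.63, against 0.59 and 0.36). Endothelial transcripts separated tumours 2 and 4: the 5 endothelial markers summed to 26.3, 73.3, 102 and 10.2 TPM in K5-Tert tumours 1 to 4 and to 19.4 to 24.3 TPM in Braf tumours. Of the 44 genes higher on both scales, 24 were called as deposited without tumour 3 and 4 without tumours 2 and 4; of the 407 lower, 407 and 13 were called. All 44 and all 407 had the same sign without tumours 2 and 4. With Xist as a covariate, 13 of the 44 and 153 of the 407 were called.

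**Figure D5:**
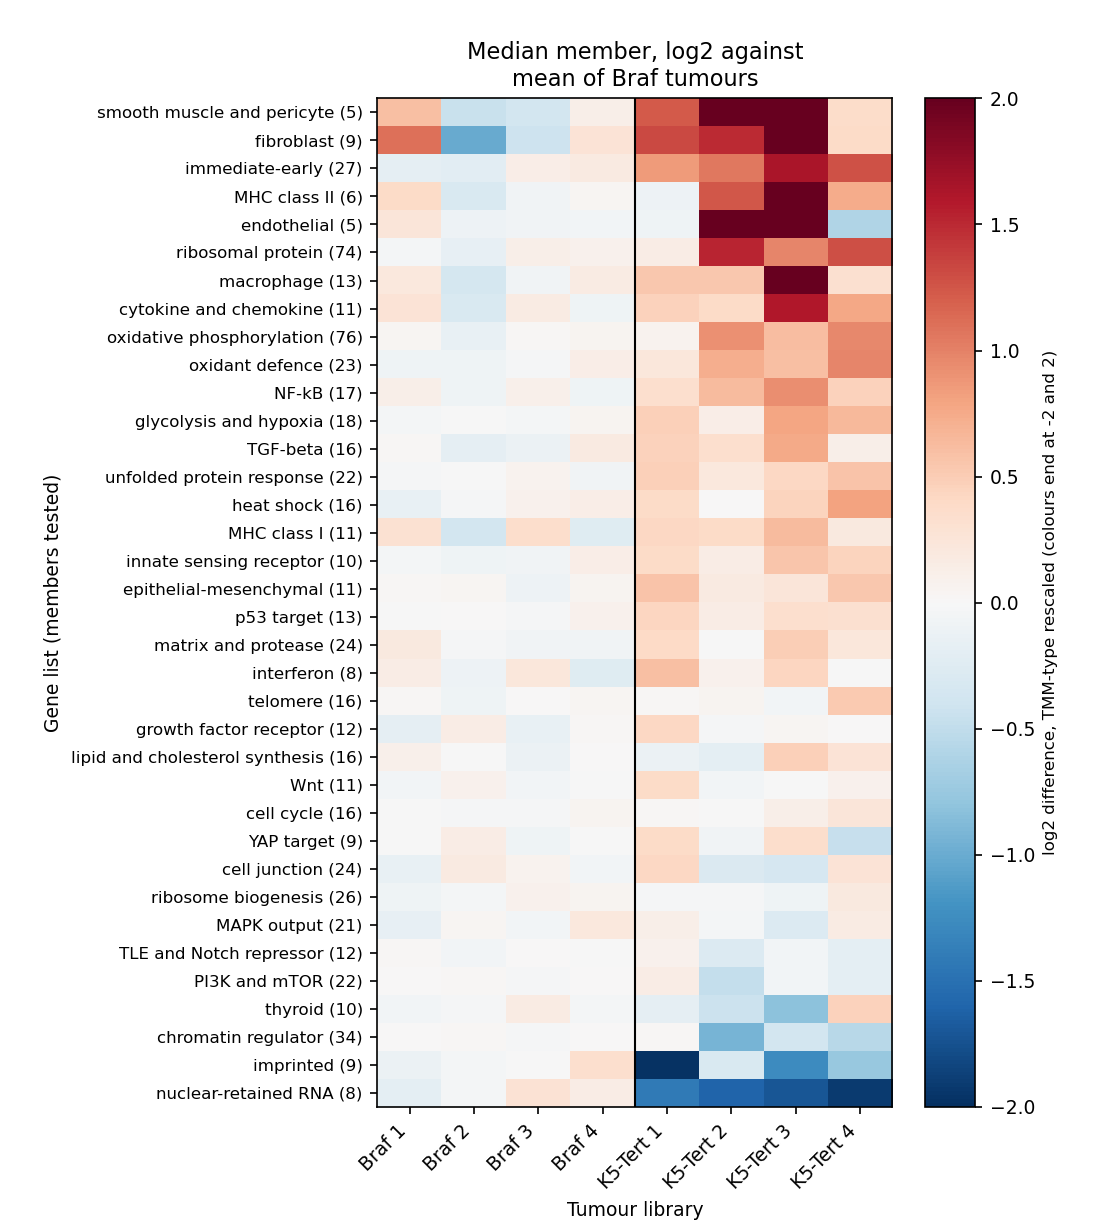
Median log2 difference of each gene list in each tumour against the mean of the Braf tumours, after TMM-type rescaling (colour; red higher, blue lower, ends at -2 and 2), with the number of members tested in brackets. The immediate-early list is higher in all 4 K5-Tert tumours (0.85 to 1.64), while ribosomal protein (0.14 in tumour 1, 0.97 to 1.53 in the others) and chromatin regulator lists set tumour 1 apart.

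The same genes were read in the 7 Tert-123 tumours, a comparison that shares the K5-Tert tumours with the one above. Il1b ranged from 2.47 to 22.5 TPM there (median 9.16), below all 4 K5-Tert tumours. Csrnp1 ranged from 5.82 to 9.05 TPM, also below all 4. Nr4a1 ranged from 4.12 to 23.6 TPM, which overlaps K5-Tert tumour 2. Other immediate-early genes overlapped more: Fosb reached 63 TPM (median 7.68), Atf3 161 TPM (median 19.7) and Fos 388 TPM (median 54.4), the last above all 4 K5-Tert tumours. Meg3 ranged from 59.5 to 152 TPM. Meg3 was thus lower in all K5-Tert tumours than in any Tert-123 tumour. Against the Tert-123 group, Meg3 stood as deposited at -2.69 (adjusted p = 0.00109).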

How the data were processed

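Messenger RNA of 9000 to 20000 YFP-sorted cells was made into libraries by a low-input protocol with 14 cycles of PCR and read as pairs of 100 bp, per the series' design text. The deposited table has 23652 entries named by symbol and 18 columns, each summing to 1000000. Its values were treated as TPM as deposited by the authors; it is called normalized counts, so the unit rests on those totals. For the aligner, quantifier, build and annotation, nothing is given in the sources used here, and no counts or depths were used. The 26 entries whose names had become dates were left out, and 23499 of the 23626 kept matched a mouse symbol.

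Groups follow the genotype labels, and replicate numbers follow accession order and pair nothing. Genes at 10 TPM or more in at least 4 of the 15 Braf-mutant tumours (7498) entered a limma 3.58.1 model (R 4.3.3) of log2(TPM + 1), trended by mean level, which left 12 residual degrees of freedom. Every test was two-sided, with Benjamini-Hochberg adjustment across the 7498 genes and a threshold of 0.05. TMM-type factors trimmed 30% of ratios and 5% of levels. Tert, Krt5 and Braf were also compared by exact permutation. Transcript lengths are medians over the transcripts of each gene in GENCODE, and promoters are from RefSeq.

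Named genes are Tert, Braf and Krt5, the 12 largest rises and 12 largest falls past the threshold on both scales where the mean was 20 TPM or more (predicted genes left out), and, for each of the 45 lists with a call, its 4 smallest p-values at most. At least 1 gene that the rule names is not reported here. The comparison, the lists (920 genes) and this rule were chosen with earlier results of these data known. On simulated data with 7498 genes in 20 runs, 26% of genes changed by 1 and 94% of those changed by 2 on the log2 scale were recovered as deposited, and 60% and 95% after rescaling. A median of 0 and at most 109 unchanged genes were called as deposited, and 2.5 and 49 after rescaling. Alternatives were other pseudocounts (0.5 and 5), no filter or one at 50 TPM, the other scalings, library weights, Xist as a covariate, the 8 libraries alone, and leaving out each library or tumours 2 and 4.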

Additional observations from a re-analysis of the deposited data

Results flagged for a closer look

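Each of the following libraries stood far from the other 3 of its group, by a gap larger than the 95% limit for 4 samples; chance gives such a gap in about 1 in 20 groups, and 15 of the 208 groups looked at showed one. Among the K5-Tert tumours, tumour 3 held Nr4a3 at 119 TPM (the others 10.2 to 14.8 TPM), Tnfaip2 at 60.8 TPM (11.8 to 13.9 TPM) and Rpsa at 1110 TPM (677 to 721 TPM). Tumour 1 held Tle2 at 32.2 TPM (12.7 to 13.7 TPM), Tle1 at 19.4 TPM (6.65 to 7.52 TPM) and Igf1r at 50.8 TPM (16.8 to 19.8 TPM). In tumour 2 Hspa1b was at 71.0 TPM, below the others at 135 to 148 TPM. The 3 genes of tumour 1 lie on the side of the Braf tumours, and those of tumour 3 on the side away from them.

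Among the Braf tumours, tumour 1 was low in Braf (5.91 TPM, the others 8.47 to 9.03 TPM), Etv4 (30.1 TPM, 46.6 to 50.01 TPM), Etv5 (23.2 TPM, 28.2 to 29.2 TPM), Id1 (41.6 TPM, 68.6 to 73.3 TPM) and Tead1 (18.4 TPM, 23.5 to 24.1 TPM). Tumour 3 was high in Arglu1 (112 TPM, 96.6 to 97.9 TPM) and Gdf15 (23.2 TPM, 17.1 to 17.6 TPM), and tumour 4 in Cebpb (62.4 TPM, 52.7 to 53.8 TPM). The low Etv4 and Etv5, ETS factors induced by ERK, stand in the Braf tumour with the lowest Braf transcript level. That tumour also had the lowest typical level of the Braf tumours as deposited (median of all genes -0.17 against the Braf mean). Whether the Braf, Etv4 and Etv5 levels are linked was not tested.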

How the results depend on the processing

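Of 7498 genes, 44 were higher and 1641 lower as deposited. The counts were 464 and 407 after TMM-type rescaling, 195 and 470 after quantile normalization, 364 and 545 with the mean and length trend removed, and 135 higher without Rpph1. They were 18 and 157 with a filter at 50 TPM, 106 and 4852 with library weights, 13 and 230 with Xist as a covariate, and 5 and 16 without K5-Tert tumours 2 and 4. The lower count was 467 with only the 8 libraries. Leaving out 1 library gave 20 to 78 higher and 397 to 3520 lower, the highest of both without K5-Tert tumour 1. The median of all genes, -0.48, was 0.0497 (TMM-type), 0.000929 (quantile) and 0.0105 (length trend). After TMM-type rescaling the counts were 127 to 855 higher and 118 to 875 lower with 1 library left out, 25 and 16 without tumours 2 and 4, 71 and 93 with Xist, and 258 and 226 with only the 8 libraries. Of the 76 named genes called as deposited, 45 were called after TMM-type rescaling, 48 after quantile normalization, 48 with the length trend removed, 29 with the filter at 50 TPM, 46 with only the 8 libraries, 30 with Xist, 8 without tumours 2 and 4, and 40 to 76 with 1 library left out. The pseudocounts and the absence of a filter kept all these counts within 1.5 times. The cause of these changes was not tested, except that the filter at 50 TPM tests fewer genes. Tert passed under every alternative run. Losses printed beside single genes above are mostly those with libraries left out, and other alternatives cost further calls. Among them, Cd14, Nfkbia, Kmt2a and Chd3 were lost both with only the 8 libraries and with Xist. Atf3, Rps7, Rpl3, Kmt2d and Ncor1 were lost with Xist.

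The direction of 5 genes that were not called as deposited turned. With library weights Pfkl stood at -0.17, Ldha at -0.0021, Tpi1 at -0.21 and Adamts1 at -0.36. Tpi1 stood at -0.0419 with Xist, and from -0.0511 to 0.194 with 1 library left out. Adamts1 ranged from -0.148 to 0.306 and Cx3cl1 from -0.0977 to 0.451 with 1 library left out. No paired analysis was possible because the labels give no replicate numbers and the sample names match none across the groups. With TPM alone, depth limits on low genes cannot be stated.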

Other observations

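Epidermal differentiation genes outside the lists, Ivl and Crct1, were lower in K5-Tert tumours. All 7 genes below were picked after their values were seen, so the values are a description. Ivl, involucrin of the cornified envelope, was at 9.44, 17.2, 20.8 and 28.4 TPM in Braf tumours and 4.48, 3.37, 3.3 and 3.26 TPM in K5-Tert tumours, -2.03 as deposited (limma adjusted p = 0.00429) and -1.55 after rescaling (0.0197). Crct1, a gene of the epidermal differentiation complex, was at 6.74, 9.52, 33.8 and 25.7 TPM and 1.77, 1.8, 0 and 1.52 TPM (-2.98 and -2.59, adjusted p = 0.0143 and 0.0418). Both lay below every Braf tumour in all 4 K5-Tert tumours, tumour 1 included, which held the most Krt5 and Krt14; Crct1 did not pass after quantile normalization. Cracr2a, a calcium-binding protein, was at 18.8, 10.5, 16.2 and 16.1 TPM and 1.74, 2.91, 4.38 and 3.01 TPM (-2.05 and -1.58), with tumour 1 the lowest. Npff, a neuropeptide gene, was at 17.4, 26.2, 15.1 and 17.7 TPM and 7.71, 2.31, 0 and 0 TPM (-3.09 and -2.83).

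Among rises outside the named genes, chosen in the same way, Rgs1, a brake on G protein signalling, was at 1.03, 1.99, 3.53 and 1.32 TPM in Braf tumours and 17.5, 18.8, 72.9 and 7.0 TPM in K5-Tert tumours (2.93 as deposited and 3.43 after rescaling, adjusted p = 0.0113 and 0.0085). Gem, a small GTPase induced by mitogens, was at 29.8, 34.9, 43.5 and 30.7 TPM and 71.8, 81.2, 101 and 83 TPM (1.26 and 1.82), and was even among the K5-Tert tumours. Nfil3, a basic leucine zipper repressor, was at 7.1, 7.06, 7.73 and 8.63 TPM and 16.1, 14.1, 70.3 and 16.1 TPM (1.46 and 1.99). In all 3 genes the groups did not overlap. All 7 were called as deposited, also without tumour 3, and without tumours 2 and 4 Cracr2a alone was called (adjusted p = 0.0268). Other single libraries were not left out for these genes.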
